A study of Mus musculus with 8 samples.

Results

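The cells described here are fibroadipogenic progenitors (FAPs) of mouse skeletal muscle that carried transcripts of both Cpxm1 and C1qtnf3. They were selected on their measured counts: a barcode was a member if it had at least 500 genes, at most 10% mitochondrial UMIs (unique molecular identifiers, each standing for 1 counted molecule) and at least 1 Pdgfra UMI, together with at least 3 Cpxm1 UMIs, at least 1 C1qtnf3 UMI, 0 Cxcl9 UMIs and 0 Dpp4 UMIs. Of the 2968 barcodes that passed the gene, mitochondrial and Pdgfra filter, 88 were members, 79 of 1435 in the dysferlin knockout matrix and 9 of 1533 in the wild type matrix. The study compared PDGFRα-sorted FAPs from the hindlimb of female mice aged 8 months, after tendon, nerve and fascia had been trimmed away, and profiled them with droplet-based 3′ single-cell RNA sequencing. The wild type mice were C57BL/6. The dysferlin knockout mice carry a strain name given as BLA/J in one label and as B6A/J in the protocol. GEO lists 4 samples for each genotype, but all samples of a genotype share 1 matrix with no map from barcodes to animals, so each group is 1 library, no test between conditions was possible, and genotype, strain and library cannot be told apart. Each interval below is a 95% interval for counting error only.

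FAPs are stromal cells that lie between muscle fibres, support regeneration after injury, and in diseased muscle can deposit collagen or turn into fat. Dysferlin is a membrane repair protein of the muscle fibre, and its loss causes a slowly progressive muscular dystrophy in which fat and connective tissue replace muscle. Cpxm1 encodes a secreted carboxypeptidase-like protein that binds collagen, and C1qtnf3 encodes CTRP3, a secreted protein with a C1q-like domain. Dpp4 is used as a marker of progenitor-like fibroblasts, and Cxcl9 is a chemokine induced by interferon gamma, so the rule removed barcodes with either transcript.

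The 250 bases upstream of the annotated start of the 2 selecting genes, and of Thbs4, whose counts followed those of C1qtnf3 most closely (below), are printed from RefSeq (GRCm38.p6, 5′ to 3′ on the gene's strand), with matches to the searched motifs in capitals. All 3 genes matched an entry. Cpxm1 lies on the minus strand, and the window is chr2:130397630-130397879. C1qtnf3 lies on the plus strand, and the window is chr15:10952082-10952331. Thbs4 lies on the minus strand, and the window is chr13:92794819-92795068.
Cpxm1: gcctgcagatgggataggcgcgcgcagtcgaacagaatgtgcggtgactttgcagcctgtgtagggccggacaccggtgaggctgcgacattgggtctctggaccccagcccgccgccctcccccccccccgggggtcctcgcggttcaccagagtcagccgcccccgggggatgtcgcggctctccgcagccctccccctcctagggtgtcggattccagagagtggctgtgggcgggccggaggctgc
C1qtnf3: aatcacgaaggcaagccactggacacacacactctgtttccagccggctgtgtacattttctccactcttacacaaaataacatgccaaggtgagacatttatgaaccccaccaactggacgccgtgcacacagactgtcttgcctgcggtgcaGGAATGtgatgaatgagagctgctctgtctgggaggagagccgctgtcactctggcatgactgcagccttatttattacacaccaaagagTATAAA
Thbs4: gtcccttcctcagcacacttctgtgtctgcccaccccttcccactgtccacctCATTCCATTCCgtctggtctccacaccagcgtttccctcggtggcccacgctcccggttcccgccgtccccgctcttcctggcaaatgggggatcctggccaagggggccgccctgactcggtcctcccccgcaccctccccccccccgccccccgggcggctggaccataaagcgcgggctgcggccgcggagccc
Each of 3 motifs was searched on both strands. The core promoter motif spelled TATAAA occurs in 12.4% of 32851 such windows. The motif of AP-1 factors, spelled TGANTCA, occurs in 6.75% of them. The motif of TEAD factors, spelled GGAATG, occurs in 12.6% of them. The Cpxm1 window held none of them and is 70.8% G and C. The C1qtnf3 window is 49.2% G and C and held TATAAA starting 6 bases before the start site and GGAATG starting 96 bases before it. The Thbs4 window is 70.8% G and C and held GGAATG 2 times on the other strand, in runs that share a base. The median window is 52.4% G and C. These matches describe letters in the reference sequence, and binding was not measured.

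Members made up 5.51% of the filtered knockout barcodes (4.38 to 6.81, exact binomial interval) and 0.587% of the filtered wild type barcodes (0.269 to 1.11). Both selecting genes were also more frequent among the barcodes that were not members in the knockout matrix: Cpxm1 was detected in 74.5% of 1356 other knockout barcodes against 36.6% of 1524 other wild type barcodes, and C1qtnf3 in 15.04% against 3.87%. Knockout barcodes were deeper, with a median of 12717 UMIs against 9177, and a rule on minimum counts is met more easily by deeper barcodes. After each barcode had been drawn down to 5000 UMIs, which left out 299 wild type and 172 knockout barcodes, 2.94% of 1090 knockout barcodes (2.02 to 4.12) and 0.189% of 1059 wild type barcodes (0.0229 to 0.681) met the rule. Of 76 knockout members with at least 5000 UMIs, 21 were still members after the draw, so membership of a single barcode depended on how many of its transcripts were captured. These 21 were part of the 32 knockout barcodes that met the rule after the draw. The rest had Cxcl9 or Dpp4 UMIs that the draw left out. Values given below for the rule on thinned counts therefore describe a partly different set of barcodes.

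Within the knockout members, Cpxm1 ranged from 3 to 101 UMIs with a median of 7, and 13 members sat on the threshold of 3. C1qtnf3 ranged from 1 to 48 UMIs with a median of 2. It was a single UMI in 38 members, 2 or 3 UMIs in 22 and at least 4 in 19. In the wild type members Cpxm1 ranged from 3 to 17 UMIs with a median of 5, and C1qtnf3 was a single UMI in 8 of 9 barcodes and 5 UMIs in the other. The 13 knockout members with exactly 3 Cpxm1 UMIs summed to 4434 CPM (UMIs of the gene per 1000000 UMIs) of Thbs4, 1069 CPM of Eln and 838 CPM of Mfap4. The 7 barcodes just outside, with 2 Cpxm1 UMIs and the rest of the rule met, summed to 586 CPM of Thbs4, 339 CPM of Eln and 298 CPM of Mfap4. The 13 held up to 23 C1qtnf3 UMIs and the 7 up to 3, so these barcodes differed in that gene too. The exclusion of Cxcl9 and Dpp4 removed more knockout barcodes than it left: 144 barcodes met the minimums for Cpxm1 and C1qtnf3 but were set aside, of which 55 had Cxcl9 alone, 52 had Dpp4 alone and 37 had both. In the wild type 1 barcode had Cxcl9 alone and 9 had Dpp4 alone, beside the 9 members.

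**Figure D1:**
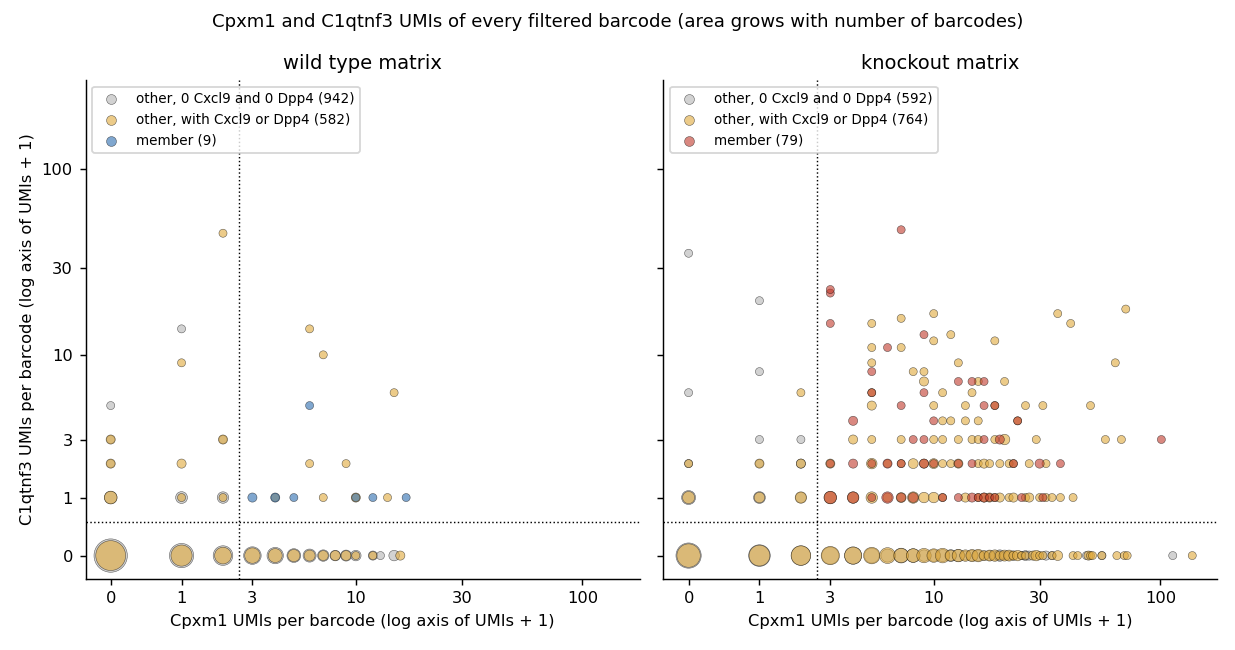
Cpxm1 UMIs (x axis) against C1qtnf3 UMIs (y axis) of every filtered barcode in the wild type (left) and knockout (right) matrix, on log axes of UMIs + 1, with point area growing with the number of barcodes and dotted lines at the thresholds. The 79 knockout members reach 101 Cpxm1 and 48 C1qtnf3 UMIs, while the 9 wild type members reach 17 and 5.

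Members carried the FAP signature. At least 6 of 10 FAP marker genes were detected in all 79 knockout and all 9 wild type members. The same held for 1355 of 1356 other knockout and 1520 of 1524 other wild type barcodes. The list includes Pdgfra, which the filter requires. Its summed level was 53503 CPM in knockout members (23682 to 119170 over barcodes) and 51179 CPM in the other knockout barcodes. Many defining markers of other cells had no UMI in the knockout members. Cdh5, Flt1, Cldn5, Emcn and Egfl7 of 8 endothelial markers had no UMI, as had all 6 neutrophil and all 5 adipocyte markers, Adgre1 and C1qb of 10 macrophage markers, and Pax7, Myf5 and Myod1 of 7 satellite cell markers. Other markers were detected: 8 of 10 for macrophages summed to 14.9 CPM in the members against 82.5 CPM in the others, 3 of 8 for endothelium to 34.4 against 74.8 CPM, and all 8 for mural cells to 78.3 against 60.5 CPM (0 to 1471 over members). The satellite list summed to 114 against 74.5 CPM, all of it Vcam1 in the members, and the lymphatic list to 182 against 206 CPM, all of it Pdpn in the members. The tenocyte list of 6 genes was also fully detected, with a summed level of 2990 CPM in knockout members (0 to 16511 over barcodes) against 834 CPM in the others. Most of that sum was Thbs4. At least 3 of the 6 tenocyte markers were present in 5 of 79 knockout members (6.33%, 2.09 to 14.2), in 19 of 1356 others (1.40%, 0.846 to 2.18) and in 0 of 9 wild type members, which allows a share of up to 33.3%. The part of tenocytes and mural cells in the results below was not tested.

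Among barcodes with no Pdgfra UMI and at least 3 UMIs of endothelial or leukocyte genes, which should lack the FAP transcripts, Cpxm1 was found in 2 of 11 knockout barcodes (median 14519 UMIs) and 3 of 39 wild type barcodes (median 4852 UMIs). C1qtnf3 was found there in 0 of 11, which allows up to 27.3%, and in 1 of 39. With so few such barcodes, a single C1qtnf3 UMI in a member cannot be told apart from free RNA. Members were somewhat deeper than the rest of their matrix, with a median of 15531 against 12475 UMIs in the knockout and 14302 against 9120 in the wild type, and their median mitochondrial shares were 2.69% against 2.86% and 3.11% against 3.24%. The 2 matrices share 13 barcode sequences, of which 2 wild type and 4 knockout barcodes passed the filter and none was a member. Dysf was found in 13 of 1435 knockout and 9 of 1533 wild type filtered barcodes, too few to check the genotype.

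Against the other knockout barcodes, the members carried more transcripts of the matrix genes Thbs4, Eln and Mfap4 and fewer of Smpd3, Sema3c and Efhd1, which were abundant in Dpp4 and Pi16 positive barcodes. Summed UMIs were compared as CPM, 1277598 UMIs in the members against 17892601 in the others, over 5946 genes with a mean of at least 20 CPM. Of these, 142 were at least 1.5-fold higher in the members (2.39% of the genes tested) and 215 at least 1.5-fold lower (3.62%), while 94.0% lay between, with a median log2 ratio of 0.00. The members were picked from the same cells on 4 of their genes, so these ratios are a description of the picked barcodes and carry no test.

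Thbs4, a thrombospondin of tendon and injured muscle matrix, was detected in 71 of 79 knockout members, with 0 CPM in the lowest, 1604 CPM in the median and 16299.7 CPM in the highest member. Its summed level was 2846 CPM in the members and 806 CPM in the others, a log2 ratio of 1.82 (1.77 to 1.87). Eln, which encodes elastin, the core of elastic fibres, was detected in 66 members, with a median of 362 CPM and a highest value of 17359 CPM. Its sums were 1406 and 344 CPM (2.03, 1.96 to 2.11), and the ratio was 1.70 when the barcode with the most Eln was left out. Mfap4, a microfibril-associated protein that binds elastin and collagen, had 0, 692 and 3416 CPM in the lowest, median and highest member. It summed to 806 against 277 CPM (1.54, 1.44 to 1.64). High values of Thbs4 and Mfap4 were spread over many members. Those of Eln were held by fewer, since its median member, at 362 CPM, stood well below the members' own summed level of 1406 CPM. The ranges of all 3 genes overlapped those of the other barcodes.

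Among the 15 genes with the largest ratios, fewer barcodes carried the rest. F2r, the thrombin receptor, was detected in 48 members (106 against 31.3 CPM, log2 ratio 1.77). Tnc, which encodes the matricellular glycoprotein tenascin C, was detected in 28 members (179 against 35.6 CPM, 2.33), but was at 0.50 when the rule was applied to thinned counts. Wisp1, a matricellular protein of the CCN family, was detected in 23 (42.3 against 8.61 CPM, 2.30), Col8a2, a network-forming collagen chain, in 20 (33.7 against 9.44 CPM, 1.83), Fmod, the collagen-binding proteoglycan fibromodulin, in 16 (82.2 against 12.02 CPM, 2.77) and Rgs4, a regulator of G protein signalling, in 12 (40.7 against 4.97 CPM, 3.03). Apart from F2r, these genes had no UMI in most members and were high in a minority.

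In 6 of the 15 genes, 1 barcode held over 33.3% of the members' UMIs. Cthrc1, a secreted protein of activated fibroblasts, had the largest log2 ratio, 3.04 (123 against 14.98 CPM), but was detected in 19 members and 1 of them held 56.7% of its UMIs. Without that barcode its ratio was 1.86, and with at least 5 Cpxm1 UMIs it was 0.35. The contractile genes Tagln and Acta2 were each detected in 5 members, and without the highest barcode their ratios moved from 2.19 to 0.97 and from 1.71 to 0.06. The tenocyte gene Tnmd, detected in 10 members, moved from 1.74 to 1.17, and the Wnt modulator Sfrp2, detected in 20, moved from 1.67 to 1.18. A window was also set at the members' middle range of depth (11507 to 20210 UMIs), with 39 members and 542 other knockout barcodes. In that window 9 of the 15 genes were still at least 1.5-fold higher. The window also leaves out the remaining members, and the part of depth itself was not tested. Ltbp2, a latent TGF-beta binding protein, moved from 2.78 to -0.05 there, Sfrp2 to -0.05, Acta2 to -1.40 and the gene 1500015O10Rik from 1.79 to -0.47, while Tnmd was at 0.52. Rgs4, Fmod, Wisp1, Eln, Col8a2, Thbs4 and F2r were at least 1.5-fold higher under every alternative tried.

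**Figure D2:**
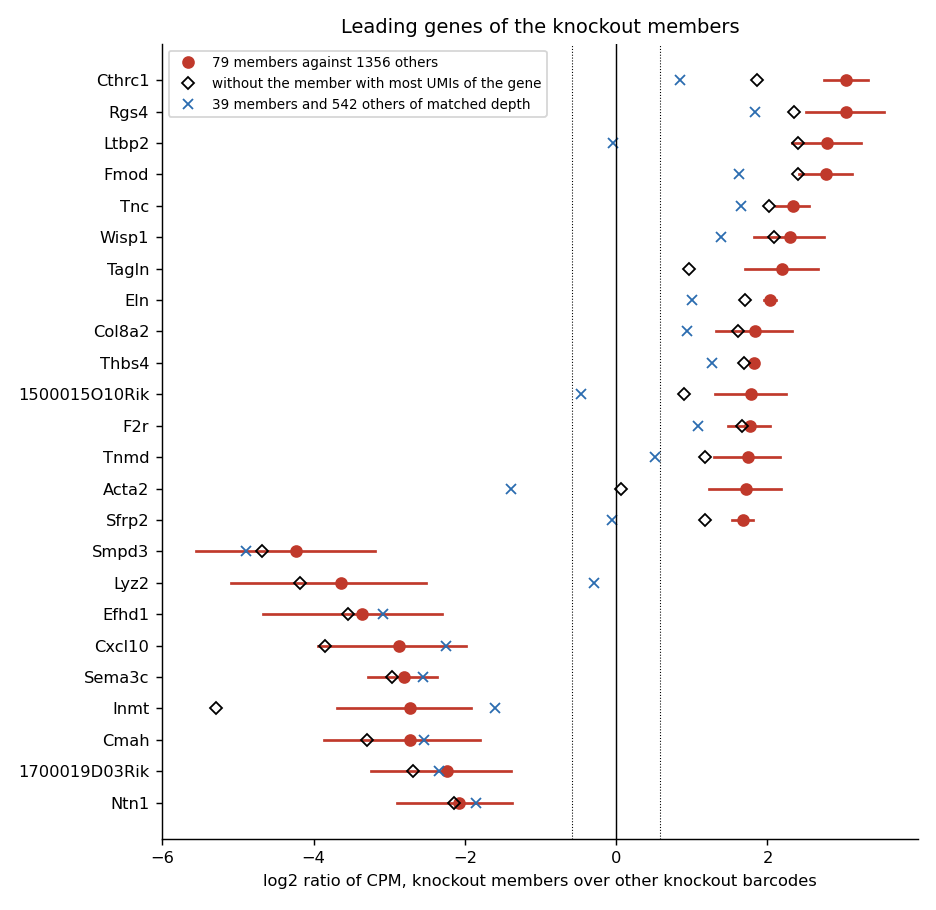
Log2 ratio of CPM (x axis), knockout members over other knockout barcodes, for the 15 genes with the largest and 9 of the 10 with the smallest ratios (y axis), with circles and lines for the ratio and its 95% counting interval, diamonds without the member holding the most UMIs of the gene, crosses within matched depth, and dotted lines at 1.5-fold. Thbs4, Eln and F2r keep ratios of at least 1.00 in all 3, while Acta2 moves from 1.71 to 0.06 and -1.40.

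Structural collagens differed little. None of 6 measured fibrillar collagen genes was at least 1.5-fold apart, with a median log2 ratio of 0.33. Col1a1 was detected in all 79 members, from 991 through a median of 4718 to 22503 CPM, and summed to 6133 against 4381 CPM (0.49, 0.45 to 0.52). Col1a2 summed to 7378 against 5582 CPM (0.40). Of 11 other measured collagens 3 were higher and none lower, among them Col8a2, described above, and the related chain Col8a1, at 801 against 268 CPM (1.58). None of 11 basement membrane genes was 1.5-fold apart (median -0.16). Of 22 genes for collagen maturation 2 were higher and 1 lower. Lox, the enzyme that crosslinks collagen and elastin, was at 303 against 136 CPM (1.16), and Plod2, the lysyl hydroxylase that modifies collagen telopeptides, was at 208 against 117 CPM (0.83). Pcolce2, an enhancer of procollagen processing, was lower at 122 against 273 CPM (-1.16). At matched depth Lox and Plod2 were at 0.39 and 0.37, under 1.5-fold.

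Of 21 matricellular and matrix glycoprotein genes 5 were higher and none lower (median 0.28), and of 8 small leucine-rich proteoglycans, which bind collagen fibrils, 3 were higher and none lower (median 0.45). The proteoglycan genes Bgn (2970 against 1915 CPM, 0.63) and Podn (480 against 277 CPM, 0.79) were detected in 79 and 77 members, and Bgn was at 0.51 at matched depth. Postn, which encodes periostin, was at 1167 against 677 CPM (0.79) in all barcodes and at -0.09 at matched depth. Comp, a cartilage and tendon matrix protein, was detected in 14 members (1.24) and was at -3.05 at matched depth. Among 15 elastic fibre genes the 3 higher ones, which include Eln and Mfap4, stood beside 3 lower ones. Efemp1, which encodes fibulin 3, was at 69.7 against 201 CPM (-1.53). Of 31 matrix proteases and inhibitors 1 was higher and 3 lower, among them Serpine2, an inhibitor of thrombin, at 72.0 against 149 CPM (-1.05), which was at -0.05 when the rule was applied to thinned counts. Mmp3, a secreted metalloproteinase, was at 415 against 373 CPM (0.15).

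Of 9 measured Wnt modulators and targets 3 were higher and 1 lower. Sfrp1, a secreted Wnt antagonist, was detected in 71 members, at 0, 441 and 3446 CPM in the lowest, median and highest, and summed to 697 against 307 CPM (1.18, 1.08 to 1.28). Dkk2, another secreted Wnt modulator, was at 41.5 against 97.5 CPM (-1.23). Of 19 genes of the TGF-beta pathway 3 were higher, including the ligand gene Tgfb3 in 49 members (89.2 against 42.4 CPM, 1.07), and 2 were lower, including Fst, which encodes the activin antagonist follistatin (78.3 against 167 CPM, -1.09). Gas1, a growth-arrest surface protein, was at 1288 against 797 CPM (0.69), and Mgp, an inhibitor of calcification, at 7456 against 4849 CPM (0.62). Against barcodes without Cxcl9 and Dpp4 they were at 0.32 and 0.25. None of 32 genes for protein entry to the endoplasmic reticulum and export from it was 1.5-fold apart (median 0.25). Of 18 genes of the unfolded protein response 2 were higher, and the chaperone gene Hspa5 was at 1608 against 1151 CPM (0.48) and Manf, a secreted stress factor of the same organelle, at 518 against 331 CPM (0.65), or 0.38 with the rule on thinned counts. Of 23 oxidative phosphorylation genes none was 1.5-fold apart (median 0.08).

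Several of the genes lowest in the members stood high in the Dpp4 and Pi16 positive state, which the rule excludes in part. Of 14 measured genes of the progenitor list 9 were lower and none higher (median -0.81), among them Cd55, a complement regulator, at 91.6 against 193 CPM (-1.08). Smpd3, a neutral sphingomyelinase, was detected in 6 members (5.48 against 103 CPM, -4.23, interval -5.55 to -3.19) and stood at 214 CPM in the 443 barcodes with both Dpp4 and Pi16. Sema3c, a secreted semaphorin, was at 32.9 against 229 CPM (-2.80) with 466 CPM in those barcodes, and Efhd1, a calcium-binding mitochondrial protein, at 5.48 against 56.1 CPM (-3.36) with 111 CPM in them. When the other barcodes were limited to 0 Cxcl9 and 0 Dpp4, as the members are, the ratios were -2.47 for Smpd3, -1.29 for Sema3c and -2.28 for Efhd1, while Cd55 was at -0.14 and the median of the progenitor list was -0.07.

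Igfbp5, a secreted binding protein of insulin-like growth factors, was not part of the rule and was at 0 CPM in the median member, with 5162 CPM in the highest. It was detected in 35 members and summed to 195 against 742 CPM (-1.93, -2.12 to -1.75). The ratio was -1.56 against barcodes with 0 Cxcl9 and 0 Dpp4, and -0.56 when the rule was applied to thinned counts. Ntn1, the axon guidance factor netrin 1, was at 12.5 against 52.9 CPM (-2.08). Inmt, a methyltransferase, was at 9.39 against 62.3 CPM (-2.73), with 83.3% of the member UMIs in 1 barcode. Cmah, which converts sialic acid, was at 7.04 against 46.6 CPM (-2.73), and the gene 1700019D03Rik at 8.61 against 40.6 CPM (-2.24). Penk, which encodes proenkephalin, was at 27.4 against 71.4 CPM (-1.38). Lyz2, a macrophage lysozyme, was at 4.70 against 58.5 CPM (-3.64), but with the stricter cell filter the ratio was 1.01.

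Of 25 measured interferon response genes 7 were lower and none higher in the knockout members (median -0.25), among them Irf7, a regulator of type I interferon (18.8 against 35.8 CPM, -0.93). Against barcodes with 0 Cxcl9 and 0 Dpp4, as the rule sets for members, the median of the list turned to 0.14 and Irf7 was at -0.35. Of 12 chemokines and cytokines 5 were lower and 1 higher (median -0.34). Cxcl10, a chemokine induced together with Cxcl9, was at 7.83 against 57.5 CPM (-2.88), and at 0.27 against barcodes without Cxcl9 and Dpp4. Of 15 class I MHC genes, which present antigen, 1 was lower. Surface genes of FAPs were lower in part: Cd34, a sialomucin of stromal and endothelial cells, was at 409 against 675 CPM (-0.72) and at -0.38 at matched depth, and Tek, which encodes the angiopoietin receptor, was at 23.5 against 51.0 CPM (-1.12) and at -0.25 against barcodes without Cxcl9 and Dpp4. Of 14 genes of an activated fibroblast list 8 were higher and none lower (median 0.89). At matched depth that median was -0.07.

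To see which of these values went with Cpxm1 and which with C1qtnf3, the knockout barcodes were set in order of the selecting genes. Col1a1 was at 2418 CPM in the 319 barcodes with neither transcript (Cxcl9 and Dpp4 not restricted), 3027 CPM in the 304 with 1 or 2 Cpxm1 UMIs and no C1qtnf3 (not restricted either), 5079 CPM in the 214 with at least 3 Cpxm1 UMIs but no C1qtnf3, Cxcl9 or Dpp4, and 6133 CPM in the members. Sfrp1 was at 178, 225, 569 and 697 CPM and Mmp3 at 99.4, 172, 488 and 415 CPM along the same order. These 3 genes were thus already high in the class with at least 3 Cpxm1 UMIs and no C1qtnf3, which also leaves out Cxcl9 and Dpp4. Eln was at 289, 313, 324 and 1406 CPM and Thbs4 at 333, 345, 905 and 2846 CPM, so that most of the excess of both stood in the step to the members. The 36 barcodes with C1qtnf3 but under 3 Cpxm1 UMIs had 1381 CPM of Eln and 1809 CPM of Thbs4, with 132 CPM of Mmp3. The 144 barcodes set aside for Cxcl9 or Dpp4, which also carry C1qtnf3, had 481 CPM of Eln, well below the members. They had 2042 CPM of Thbs4, 628 CPM of Mfap4 and 609 CPM of Mmp3. Smpd3 stood at 113, 175, 21.4 and 5.48 CPM and Igfbp5 at 1101, 1399, 351 and 195 CPM along the same order. The lower values belong to classes with at least 3 Cpxm1 UMIs that also leave out barcodes with Cxcl9 or Dpp4. The classes before them keep such barcodes, and Smpd3 was abundant in barcodes with Dpp4 and Pi16. The part of Cpxm1 in this fall was therefore not tested.

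**Figure D3:**
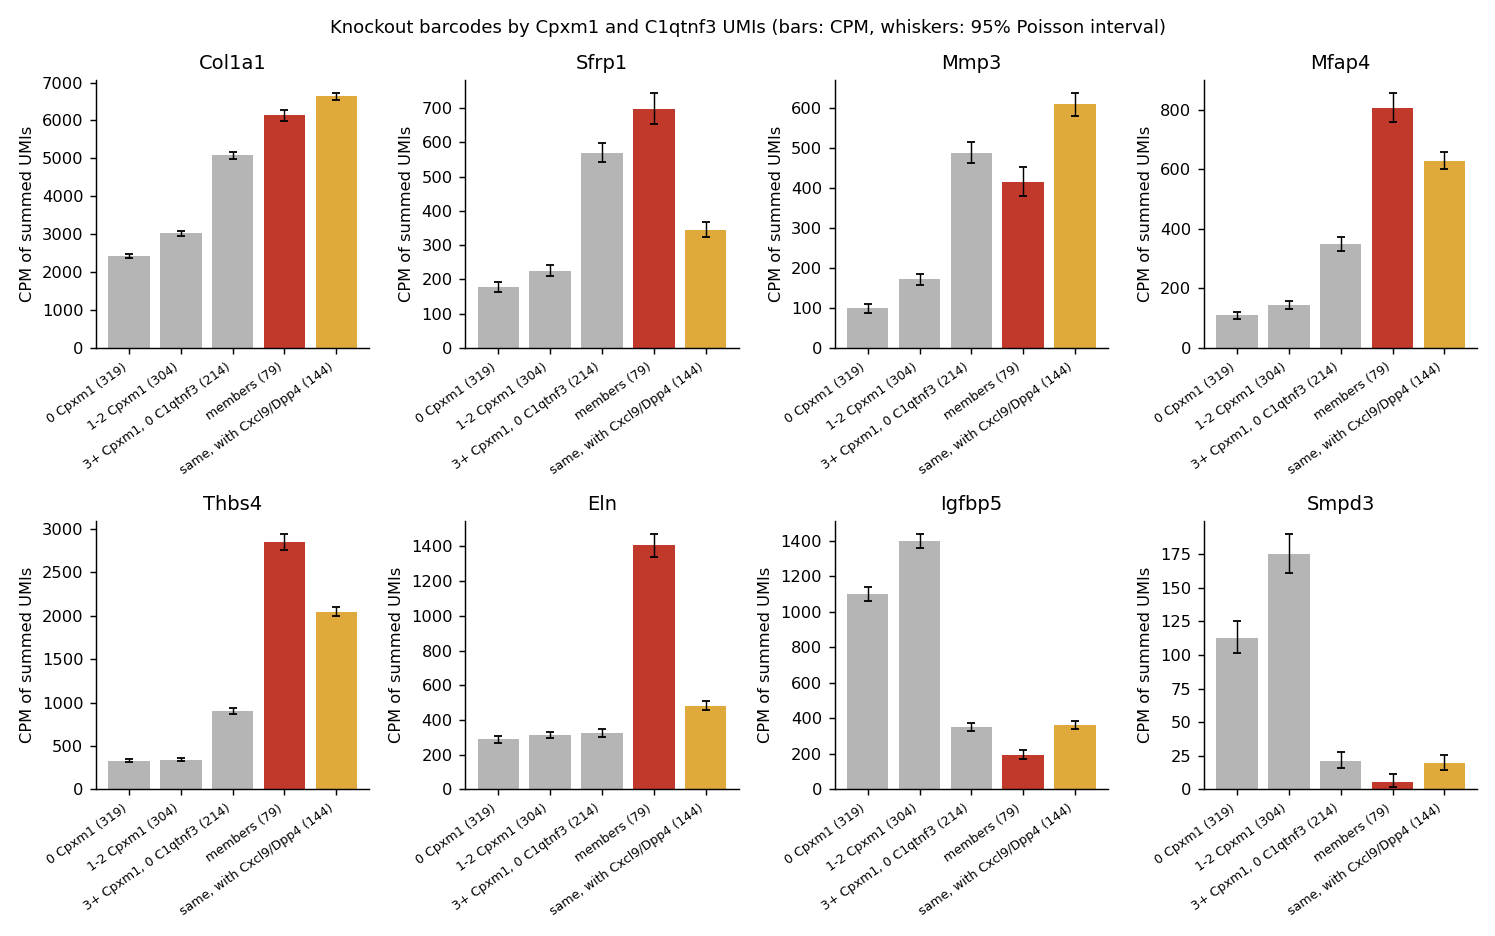
CPM of summed UMIs (y axes, with 95% Poisson intervals as whiskers) of 8 genes in knockout barcodes ordered by the selecting genes (x axes, number of barcodes in brackets), members in red and barcodes set aside for Cxcl9 or Dpp4 in orange. Col1a1, Sfrp1 and Mmp3 are high from the class with at least 3 Cpxm1 UMIs on, whereas Eln reaches 1406 CPM in the members against 324 CPM in that class.

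Against the 214 Cpxm1 barcodes without C1qtnf3, the members were at least 1.5-fold higher in 167 of 5895 genes (2.83%) and lower in 190 (3.22%). The log2 ratio was 2.12 for Eln, 1.65 for Thbs4, 1.21 for Mfap4, 1.66 for Col8a1 and 1.00 for Lox, but 0.27 for Col1a1, 0.29 for Sfrp1 and -0.24 for Mmp3. Apoe, a lipid carrier, was at -2.13 and Igfbp5 at -0.85. Against 19 knockout barcodes with Cthrc1 and Postn that were no members and had 0 Cxcl9 and 0 Dpp4, 15.2% of 5784 genes were at least 1.5-fold higher and 8.75% lower in the members. These 19 barcodes hold 298775 UMIs, so many of those genes rest on few counts. Fmod was at 4.62 and Tnc at 3.16 in that comparison, while Col1a1 was at -0.04 and Postn at 0.26. In the 19 barcodes 1 UMI is worth 3.35 CPM, and the Fmod and Tnc ratios rest on very few UMIs there. The 16 wild type barcodes of the same class had 526 CPM of Tnc and 195 CPM of Fmod, with 56 of its 63 UMIs in 1 barcode.

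Members also differed among themselves with the amount of C1qtnf3. The 38 members with 1 C1qtnf3 UMI had 800 CPM of Eln and 2309 CPM of Thbs4, the 22 with 2 or 3 had 1171 and 2273 CPM, and the 19 with at least 4 had 2524 and 4160 CPM. Lox was at 215, 234 and 496 CPM, and Col1a1 at 5253, 6068 and 7511 CPM. Apoe went the other way, at 198, 123 and 15.9 CPM, as did Igfbp5, at 277, 192 and 74.2 CPM. The contractile genes were in the last class: Tagln had 0, 0 and 133 CPM and Acta2 3.53, 0 and 122 CPM, which in both genes is mostly 1 barcode. Cpxm1 itself was at 577, 1156 and 477 CPM and showed no order. Median depth was 14184 UMIs in the first class and 19549 UMIs in the last. Its part in these differences was not tested.

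The genes with the most similar counts differed between Cpxm1 and C1qtnf3. Over 1263 filtered knockout barcodes thinned to 5000 UMIs and 6030 genes, the genes with counts most like those of Cpxm1 were Lum (Spearman's rho 0.46), Col3a1 (0.45) and Col1a2 (0.41), and C1qtnf3 had rank 196 (0.12). For C1qtnf3 they were Thbs4 (0.30), Mfap4 (0.29) and Cilp (0.28). Counts were sparse, all barcodes come from 1 library, and these values are descriptions only.

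The 9 wild type members hold 136776 UMIs, so that 1 UMI is worth 7.31 CPM and only abundant genes can be read. Of 5753 genes, 19.9% were at least 1.5-fold higher and 16.2% lower in these members than in the other wild type barcodes. The counting interval left out 0 for 334 of the 1144 higher genes and 232 of the 931 lower genes. Thbs4 was at 1886 against 556 CPM (1.76, 1.58 to 1.94), Eln at 1820 against 376 CPM (2.28, 2.09 to 2.46), Mfap4 at 972 against 188 CPM (2.37, 2.11 to 2.62) and F2r at 139 against 20.7 CPM (2.74, 1.99 to 3.41). Mfap4 was detected in all 9 members, from 69.9 to 1804 CPM, whereas 47.7% of the Thbs4 and 49.0% of the Eln UMIs came from 1 barcode each. With at least 5 Cpxm1 UMIs the Thbs4 ratio was 0.25. These levels were not particular to the members. The 9 wild type barcodes set aside for Dpp4 alone had 4348 CPM of Thbs4, 1494 CPM of Eln and 1635 CPM of Mfap4. Thbs4 was at 3874 CPM in the 16 wild type non-members with Cthrc1 and Postn, 0 Cxcl9 and 0 Dpp4, where Eln was at 551 CPM. Of the 15 genes that led the knockout members 8 had a ratio above 0 in the wild type members too, and the rest had no UMI there. Among the 8, Rgs4 and Wisp1 rested on 1 UMI each, Col8a2 on 2 and Acta2 on 3, and all 24 Sfrp2 UMIs were in 1 barcode. Smpd3 had no UMI in the wild type members against 143 CPM in the others, at least 6.53-fold lower when set at the limit of 3 UMIs over the 9 members (21.9 CPM).

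The ratios of the collagens were larger in the wild type matrix than in the knockout matrix, a difference that was not tested. Of 6 fibrillar collagens 5 were at least 1.5-fold higher in the wild type members (median 1.07). Col1a1 was at 5016 against 2248 CPM (1.16, 1.05 to 1.27), with 2455, 3926 and 9436 CPM in the lowest, median and highest member, and Col1a2 at 5688 against 2865 CPM (0.99, 0.89 to 1.09). The 9 wild type barcodes set aside for Dpp4 alone stood higher, at 10471 CPM of Col1a1 and 10617 CPM of Col1a2. Mmp3 and Sfrp1 were not higher: Mmp3 had 3 UMIs (21.9 against 62.9 CPM, -1.52, interval -3.80 to 0.03) and Sfrp1 9 UMIs (65.8 against 94.3 CPM, -0.52, interval -1.65 to 0.41).

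Set side by side, knockout and wild type members were within 1.5-fold of each other for the fibrillar collagens, Eln and Mfap4, and further apart for Mmp3, Sfrp1 and genes of the interferon and glucocorticoid responses. Of 5764 genes, 18.8% were at least 1.5-fold higher and 18.1% lower in the knockout members, with the counting interval off 0 for 251 of 1085 and 266 of 1044. None of 6 fibrillar collagens was 1.5-fold apart (median 0.10). Col1a1 was at 6133 against 5016 CPM (0.29, 0.18 to 0.40), Thbs4 at 2846 against 1886 CPM (0.59, 0.41 to 0.78), Eln at 1406 against 1820 CPM (-0.37, -0.56 to -0.18) and Mfap4 at 806 against 972 CPM (-0.27, -0.53 to 0.00). The ranges over barcodes overlapped in each of these genes. With 9 wild type members the ratios moved with the choice of barcodes: Eln was at -2.29 and Thbs4 at -0.10 among barcodes of matched depth, and Eln at 0.24 and Thbs4 at 1.92 with at least 5 Cpxm1 UMIs. Among the barcodes that were not members, 5% of 5935 genes were at least 1.5-fold higher and 3.47% lower in the knockout. There Col1a1 was at 4381 CPM in the knockout and 2248 CPM in the wild type (0.96, 0.94 to 0.98), 4 of 6 fibrillar collagens were higher (median 0.86), and Eln was at 344 and 376 CPM (-0.13).

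**Figure D4:**
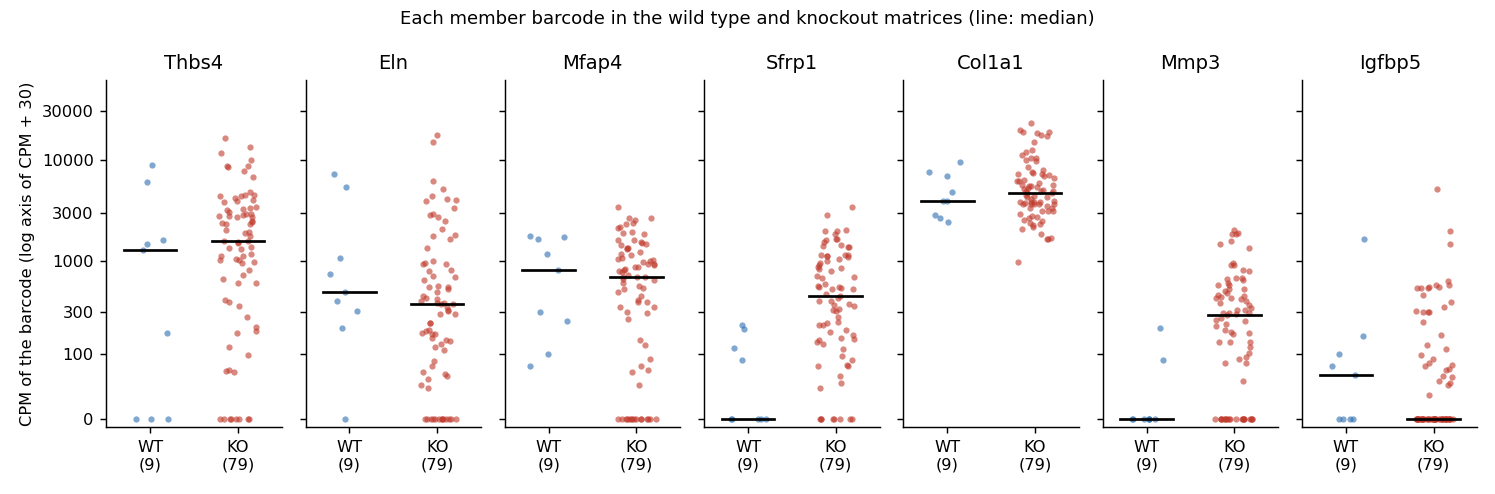
CPM of 7 genes (y axis, log axis of CPM + 30) in each of the 9 wild type (WT, blue) and 79 knockout (KO, red) member barcodes, with the median as a line. Thbs4, Eln, Mfap4 and Col1a1 overlap between the libraries, while Mmp3 and Sfrp1 are at 0 CPM in the median wild type member and at 277 and 441 CPM in the median knockout member.

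Mmp3 was at 415 CPM in knockout members and 21.9 CPM in wild type members (4.24, 2.69 to 6.52), and was detected in 59 of 79 against 2 of 9. Among the other barcodes it was at 373 and 62.9 CPM (2.57). Sfrp1 was at 697 and 65.8 CPM (3.41, 2.48 to 4.54), and at 307 and 94.3 CPM in the others (1.70). Several genes had no UMI in the 9 wild type members. Against the limit of 3 UMIs, the knockout members were at least 8.17-fold higher for Tnc and at least 6.00-fold for the monocyte chemokine gene Ccl2, 5.42-fold for the related Ccl7, 5.60-fold for Cthrc1, 5.53-fold for the phospholipase gene Pla1a, 5.53-fold for Ptx3, a soluble pattern recognition protein, 5.46-fold for Plac8 and 4.07-fold for Tgfb3. For Cthrc1 this value too is dominated by 1 knockout barcode. The limit treats the 9 barcodes as 1 sum and leaves out the spread between barcodes. Among the other barcodes Tnc was at 35.6 CPM in the knockout and 30.9 CPM in the wild type, and Cthrc1 at 14.98 and 22.7 CPM. Pla1a was at 145 CPM in the other wild type barcodes, above the 121 CPM of the knockout members. Ptx3, Tgfb3, Ccl2, Ccl7 and Plac8 were at 48.7, 44.0, 35.8, 25.4 and 23.9 CPM in the other wild type barcodes, below the knockout members. The 9 wild type barcodes set aside for Dpp4 alone had 340 CPM of Tnc, 328 CPM of Cthrc1 and no Ccl7 UMI. They had 820 CPM of Ccl2, with 137 of its 140 UMIs in 1 barcode. Bc1, a brain cytoplasmic RNA whose reads can overlap another gene, was at least 6.85-fold higher and is uncertain.

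Of 17 interferon response genes 11 were at least 1.5-fold higher and 1 lower in knockout than in wild type members (median 1.10). Over all genes tested between members, 18.8% were higher and 18.1% lower. In the other barcodes 16 of 21 interferon response genes were higher (median 1.27), where 5% of all genes were higher and 3.47% lower. Iigp1, an interferon-inducible GTPase, was at 118 against 14.6 CPM (3.02, 1.14 to 6.07) in members, where the wild type value is 2 UMIs, and at 169 against 18.6 CPM (3.18) in the others. The class I genes B2m (894 against 351 CPM, 1.35), H2-K1 (762 against 307 CPM, 1.31) and H2-D1 (1260 against 512 CPM, 1.30) were detected in all 9 wild type members. Of 14 glucocorticoid-induced genes 10 were lower and none higher in knockout members (median -0.76), against 9 lower and 1 higher of 13 in the others (median -1.09). Tsc22d3, a classic target of the glucocorticoid receptor, was at 192 against 782 CPM in members (-2.03, -2.36 to -1.69) and at 216 against 830 CPM in the others (-1.94). The transcription factor gene Zbtb16 was at 36.8 against 175 CPM (-2.25) and at 84.1 against 389 CPM (-2.21). For these genes the members and the other barcodes gave values close to each other.

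Other genes lower in the knockout members rested on few wild type barcodes. Ptgs2, the inducible cyclooxygenase, was at 25.8 against 205 CPM (-2.99), with 28 wild type UMIs in 4 barcodes. Apoe was at 124 against 826 CPM (-2.73), with 67.3% of the wild type UMIs in 1 barcode. That share was 87.0% for the BMP family gene Gdf10 (-2.94) and 100% for the protease gene Adamts4 (-2.47). Aldh1a2, an enzyme of retinoic acid synthesis, was at 27.4 against 146 CPM (-2.42), with 70.0% in 1 barcode, and was at 1.71 at matched depth. The stress genes Ddit4 and Ndrg2 were at -2.12 and -1.95, and at -1.88 and -1.03 in the other barcodes. Meox1, a homeobox gene, was at 259 against 21.9 CPM (3.56, 2.00 to 5.85), with 3 wild type UMIs. The ribosomal protein gene Rpl10 (-1.83) has near-identical copies, and its counts are uncertain.

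**Figure D5:**
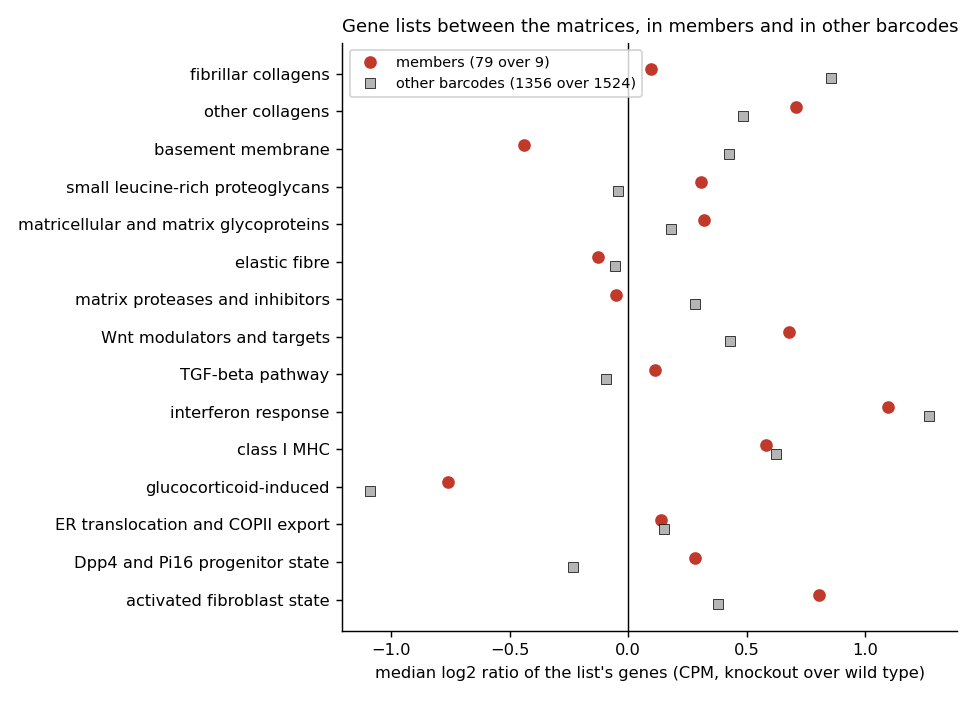
Median log2 ratio of CPM, knockout over wild type (x axis), over the measured genes of 15 gene lists (y axis), in members (red circles, 79 over 9 barcodes) and in the other barcodes (grey squares, 1356 over 1524), with genes at 0 UMIs set at the limit of 3 UMIs. The interferon response list is at 1.10 and 1.27 and the glucocorticoid list at -0.76 and -1.09, while fibrillar collagens are at 0.10 in members and 0.86 in the others.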

How the data were processed

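Counts were deposited by the authors as 1 gene-by-barcode matrix of UMI counts per genotype, made with Cell Ranger 3.0.0 on mm10 per the submitters' processing notes, which also name Seurat (the matrix header per the file headers reads 3.0.2). Raw counts were summed over barcodes and divided by total UMIs (CPM), and log2 ratios were given exact conditional binomial intervals in Python 3.11.15 with SciPy 1.17.1. Sums had exact Poisson intervals and shares Clopper-Pearson intervals at 95%. Genes needed a mean of 20 CPM, and 1.5-fold counted as a difference. The ratio and interval code was tested on simulated data. Doublets were called with Scrublet (scanpy 1.11.5). The members and the 36 pathway and 15 marker lists were chosen with earlier results of these data known. Named genes were the 15 highest and 10 lowest ratios in knockout members (at least 50 UMIs), the 10 highest and 10 lowest between genotypes (mean of 50 CPM), and up to 3 per list. Col3a1, Lum, Cilp and the marker genes at 0 were named outside that rule, after their values were seen. Results for 2 genes that the rule named are not reported here. Motifs were searched in RefSeq promoters.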

Additional observations from a re-analysis of the deposited data

Results flagged for a closer look

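Of the named genes reported here, 5 lay at least 1.5-fold from the other barcodes in opposite directions in the 2 matrices, with both counting intervals off 0. The log2 ratios of members over others in the knockout and the wild type were 0.89 and -2.19 for Meox1, -0.98 and 1.16 for Gdf10, -1.14 and 1.05 for Apoe, -1.90 and 2.34 for Aldh1a2 and -0.65 and 0.62 for Cxcl12, a stromal chemokine. The difference between the matrices was not tested, since each is 1 library. With at least 2 Cpxm1 UMIs the wild type ratio of Apoe was 0.38, under 1.5-fold. At matched depth that of Aldh1a2 turned to -0.89. The wild type side rests on 3 UMIs for Meox1, and 1 barcode held 87.0% of the wild type member UMIs of Gdf10, 67.3% of Apoe, 70.0% of Aldh1a2 and 58.5% of Cxcl12.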

How the results depend on the processing

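No paired analysis was possible because each genotype is 1 matrix without a map from barcodes to samples, and for the same reason no replicate could be left out. The share of members was 3.90% of knockout barcodes with at least 5 Cpxm1 UMIs, 2.86% with at least 2 C1qtnf3 UMIs (wild type 0.0652%) and 2.94% on counts thinned to 5000 UMIs (wild type 0.189%). Those last 2 rules left 1 and 2 wild type members, and gene values were not computed for them there. In knockout members, 286 genes were higher and 351 lower with at least 2 C1qtnf3 UMIs, 417 and 351 with thinned counts, and 254 higher at matched depth. Counts followed the floor on the mean CPM. At 50 CPM they were 65 higher and 69 lower in knockout members, 444 and 340 in wild type members, and 413 and 371 between members. At 5 CPM they were 422 and 880, 2117 and 2309, and 2364 and 2069. At 200 CPM they were 25 and 9, 73 and 71, and 64 and 47. That floor, and leaving out single members or the barcodes found in both matrices, were chosen after seeing the data. Scrublet called 4 wild type and 6 knockout barcodes doublets, none a member, so doublets were in effect not removed.

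Values at least 1.5-fold apart turned direction in these cases, whose cause was not tested. With at least 5 Cpxm1 UMIs, Tagln was at -0.078 and Acta2 at -3.63 in knockout members, and the tenocyte list median at -0.27 in wild type members. With thinned counts Lyz2 was at 0.95 and Comp at -0.30, and with the stricter cell filter Lyz2 was at 1.01. At matched depth Ltbp2 was at -0.047, 1500015O10Rik at -0.47, Acta2 at -1.40, Sfrp2 at -0.050, Comp at -3.05 and Postn at -0.085 in knockout members, with list medians of -0.14 (osteogenic and chondrogenic) and -0.070 (activated fibroblast). Aldh1a2 was at -0.89 in wild type members there. Between members at matched depth, Aldh1a2 was at 1.71, Ddit4 at 0.33 and Thbs4 at -0.10, and list medians at -0.18 (Wnt) and -0.45 (osteogenic and chondrogenic). At 5 CPM the osteogenic and chondrogenic median was -0.11 in knockout members and the Wnt median between members -0.0012. Against others with 0 Cxcl9 and 0 Dpp4, Cxcl10 was at 0.27. Values under 1.5-fold turned as well: Eln between members (0.17 and 0.24 with at least 2 and 5 Cpxm1 UMIs), Sfrp1 in wild type members (0.40 at matched depth), Mmp3 in knockout members (-0.093 with at least 2 C1qtnf3 UMIs) and the medians of 19 lists in knockout members, 25 in wild type members and 17 between members in at least 1 alternative. Of 753 values of named genes in knockout members, 531 stayed within the counting interval, 210 moved beyond it and 12 that were at least 1.5-fold apart turned.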
